A study of Homo sapiens with 6 samples.

Results

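Transcript levels of 10 genes of lipid droplet storage and lipolysis were followed in T47D cells, a luminal-like human breast cancer line, under low and normal oxygen. Their symbols were matched exactly to the gene identifiers of the count files, and all 10 were present among the 27754 genes counted. They fall into 4 roles: the lipase inhibitors HILPDA and G0S2, the lipase PNPLA2 with its co-activator ABHD5, the droplet coat proteins PLIN2, PLIN3, PLIN4 and PLIN5, and the acyltransferases DGAT1 and DGAT2.

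Cells store surplus fatty acids as triacylglycerol in lipid droplets, which consist of a neutral lipid core under a phospholipid monolayer carrying perilipins and other proteins. DGAT1 and DGAT2 catalyse the last step of triacylglycerol synthesis, and PNPLA2 (adipose triglyceride lipase) catalyses the first step of its breakdown, with ABHD5 as its activator and HILPDA and G0S2 as its protein inhibitors. HILPDA is an established target of the hypoxia-inducible transcription factors, and tumour cells under low oxygen are known to accumulate droplets.

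Messenger RNA was sequenced from 3 samples kept in normoxia (20% O2) and 3 kept in hypoxia (0.5% O2 by the labels, while the study's text names a different O2 level) for 48 h, all of the same line in serum-containing RPMI with no other agent named in the labels. The 6 libraries held between 32989104 and 89883409 gene-assigned counts, the deepest being hypoxia replicate 3, so that 3 counts corresponded to 0.0334 to 0.0909 CPM (counts scaled to a common library size). CPM values below are normalised with TMM factors, which correct for composition differences between libraries, and all folds are hypoxia over normoxia unless written as a fall. The luminal markers were abundant in every library, with 10 of 10 above the low-count filter. Of these, 0 were called higher and 5 lower in hypoxia, against 30.4% and 29.1% of all tested genes. The largest falls were those of PGR, 7.62-fold, and ESR1, 3.64-fold. In a fit blocked on replicate number, CDH1 was called higher (log2 fold change 0.20, edgeR adjusted p = 0.00965). KRT8 (-0.51, adjusted p = 7.55e-05) and KRT18 (-0.35, adjusted p = 0.00107) were called lower in that fit. EPCAM and KRT19 were called in neither fit, with blocked log2 fold changes of 0.027 and -0.039.

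**Figure D1:**
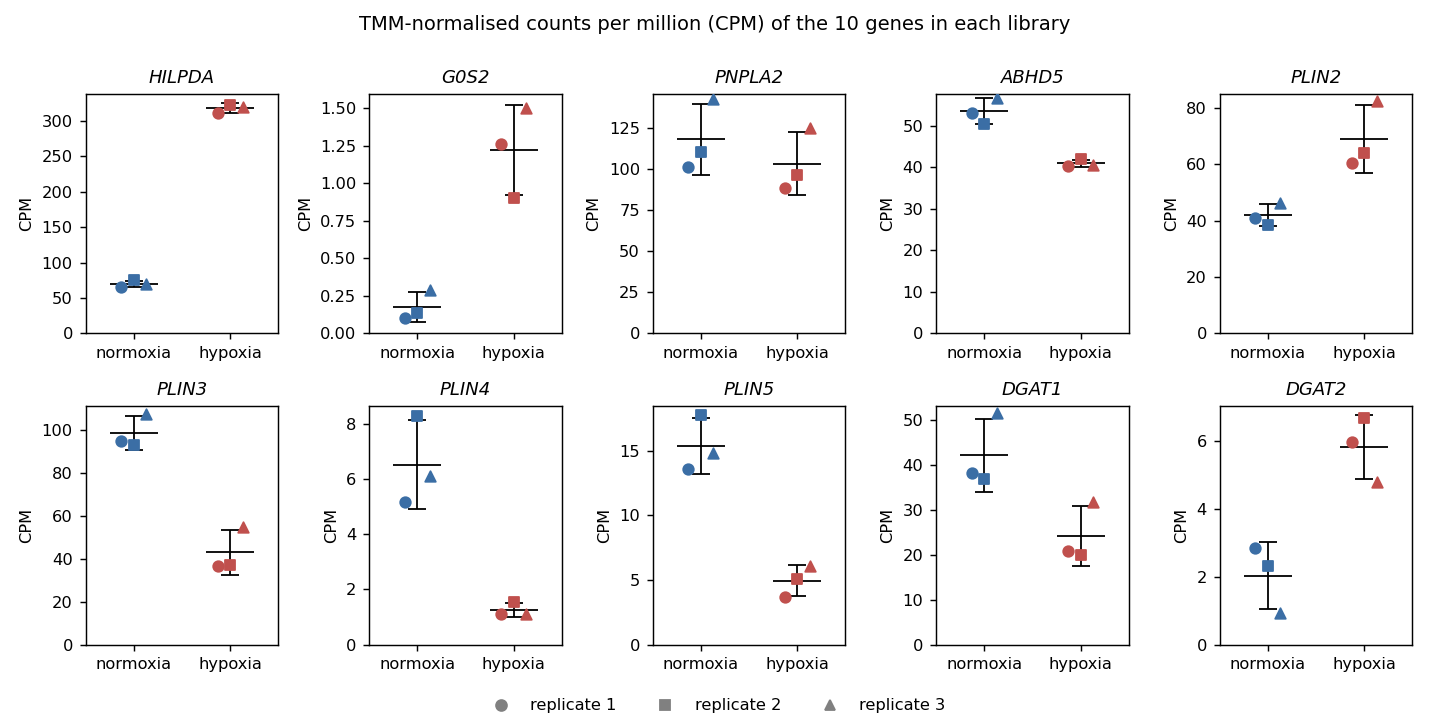
TMM-normalised CPM (linear axis from 0, scaled per panel) for each of the 10 genes, with 1 point per library for the 3 normoxia and 3 hypoxia samples, a line at each group mean and bars of 1 SD. PNPLA2 is the gene whose groups overlap, while in the other 9 genes every hypoxia sample lies on one side of every normoxia sample, as in 67.3% of all tested genes.

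All 10 genes passed the low-count filter. G0S2, with 4, 5 and 9 counts in normoxia, passed it through its hypoxia libraries, so its being tested was tied to its rise. By edgeR's quasi-likelihood test at a Benjamini-Hochberg adjusted p below 0.05 over 15657 genes, 4 were higher in hypoxia (HILPDA, G0S2, PLIN2 and DGAT2), 5 were lower (ABHD5, PLIN3, PLIN4, PLIN5 and DGAT1) and PNPLA2 did not pass. The background was wide, since 30.4% of all tested genes were called higher and 29.1% lower, so being called is in itself common in these data. In 9 of the 10 genes the 2 groups did not overlap, which was also so for 67.3% of all tested genes. Because bulk RNA was measured, a change in every cell and a change in the share of cells expressing a gene cannot be told apart.

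HILPDA, a small droplet protein that binds and inhibits PNPLA2, was higher in every hypoxia sample. Its normoxia levels were 65.7, 74.9 and 69.2 CPM, and its hypoxia levels were 310.6, 323.2 and 320.4 CPM. The lowest hypoxia value was thus far above the highest normoxia value, and the samples within a group lay close together. The mean rose from 69.9 ± 4.64 to 318 ± 6.62 CPM (SD, n = 3), a 4.55-fold rise (log2 fold change 2.19, SE 0.078, 95% interval 2.00 to 2.37, edgeR adjusted p = 6.77e-06). HILPDA ranked 825 from the top of the 15657 tested genes by log2 fold change. The gene lies on the forward strand of chromosome 7 at 128095884 to 128098472 (hg19, as in the count files) and was counted over 2 exons totalling 1412 bases.

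G0S2, the second protein inhibitor of PNPLA2 and best known from adipose tissue and liver, was a low-abundance transcript. It had 4, 5 and 9 counts in the normoxia libraries and 51, 33 and 137 in the hypoxia libraries. Normalised, these were 0.101, 0.134 and 0.291 CPM against 1.26, 0.902 and 1.50 CPM, so the groups did not overlap. The mean rose from 0.175 ± 0.101 to 1.22 ± 0.300 CPM (SD, n = 3), and the fold of 7.19 had a wide 95% interval of 3.72 to 13.9 (log2 fold change 2.85, SE 0.41, edgeR adjusted p = 8.27e-04). That interval includes the fold of HILPDA, and the normoxia counts were close to the detection limit. The gene lies on chromosome 1 at 209848670 to 209849735, forward strand, with 2 exons.

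PNPLA2, the rate-limiting triacylglycerol lipase, was abundant in both conditions and did not pass the test. Its normoxia levels were 100.9, 110.4 and 142.5 CPM and its hypoxia levels were 88.5, 96.4 and 124.8 CPM. The groups overlapped, and replicate 3 was the highest sample in each. The means of 118 ± 21.8 and 103 ± 19.1 CPM (SD, n = 3) gave a log2 fold change of -0.19 (SE 0.16, 95% interval -0.57 to 0.19, edgeR adjusted p = 0.344). Same-numbered samples differed by -0.19, -0.20 and -0.19 on the log2 scale, and a fit blocked on that number put the change past the threshold (SE 0.050, adjusted p = 0.00887). The size of the change depended on the scaling: with upper-quartile factors, which moved the median gene up by 0.157, it was -0.032 (adjusted p = 0.862), and -0.034 with the block added (adjusted p = 0.555). PNPLA2 lies on chromosome 11 at 818901 to 825571, forward strand, with 10 exons.

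ABHD5, the hydrolase-fold protein that activates PNPLA2 and is held on droplets by perilipins, was lower in hypoxia. Its levels were 53.2, 50.5 and 56.8 CPM in normoxia and 40.4, 42.0 and 40.5 CPM in hypoxia, without overlap. The mean fell 1.30-fold, from 53.5 ± 3.14 to 41.0 ± 0.877 CPM (SD, n = 3), with a log2 fold change of -0.38 (SE 0.078, edgeR adjusted p = 0.00394). The fall kept its side of the threshold with upper-quartile factors, at -0.22 (adjusted p = 0.032). ABHD5 lies on chromosome 3 at 43732362 to 43764217, forward strand, with 7 exons.

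**Figure D2:**
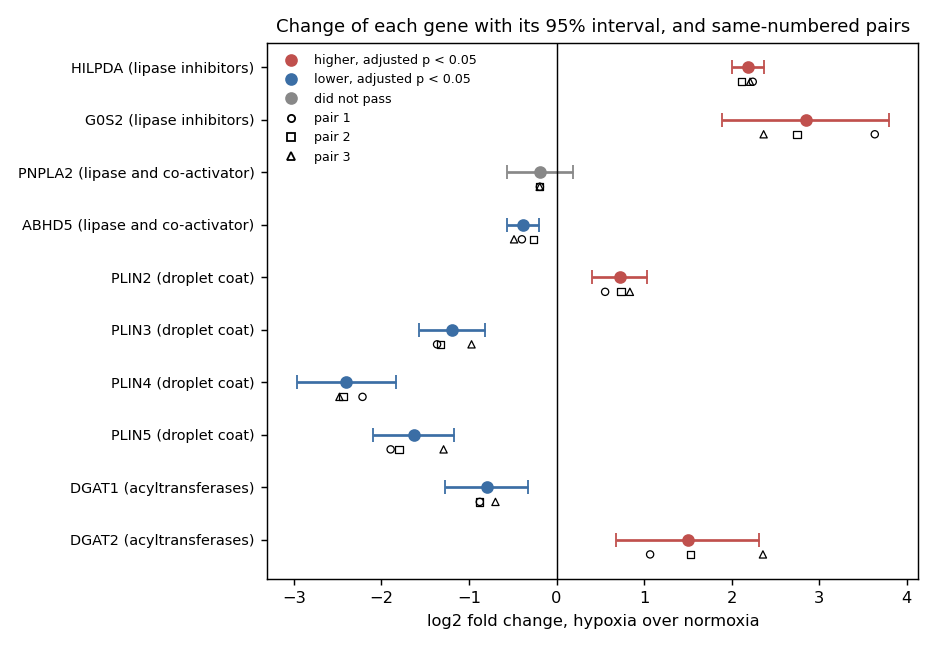
Log2 fold change of hypoxia over normoxia for each gene (filled points, coloured by call) with its 95% interval from the edgeR fit, and the differences of the 3 same-numbered sample pairs (open symbols). The points of G0S2 and HILPDA lie highest and that of PLIN4 lowest, and the PNPLA2 interval spans 0.

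The mRNA level of inhibitor relative to lipase was compared within each library. The summed CPM per kilobase of exon of HILPDA and G0S2 was divided by that of PNPLA2, so that library scaling cancels. Neither these proteins nor lipid droplets were measured in these samples. The ratio was 1.12, 1.17 and 0.840 in the normoxia samples and 6.07, 5.78 and 4.44 in the hypoxia samples. Every hypoxia ratio was above every normoxia ratio, and HILPDA supplied almost all of the sum. The difference was 2.38 on the log2 scale, or 5.22-fold (exact two-sided permutation test, p = 0.1, the smallest that 3 against 3 allows, Benjamini-Hochberg adjusted 0.133 over the 4 ratios compared). The ratio of ABHD5 to PNPLA2 was 0.238, 0.207 and 0.180 in normoxia and 0.207, 0.197 and 0.147 in hypoxia. These groups overlapped, with a log2 difference of -0.19 (exact permutation p = 0.4, adjusted 0.4), while the differences within same-numbered pairs were all negative, at -0.21, -0.071 and -0.29.

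**Figure D3:**
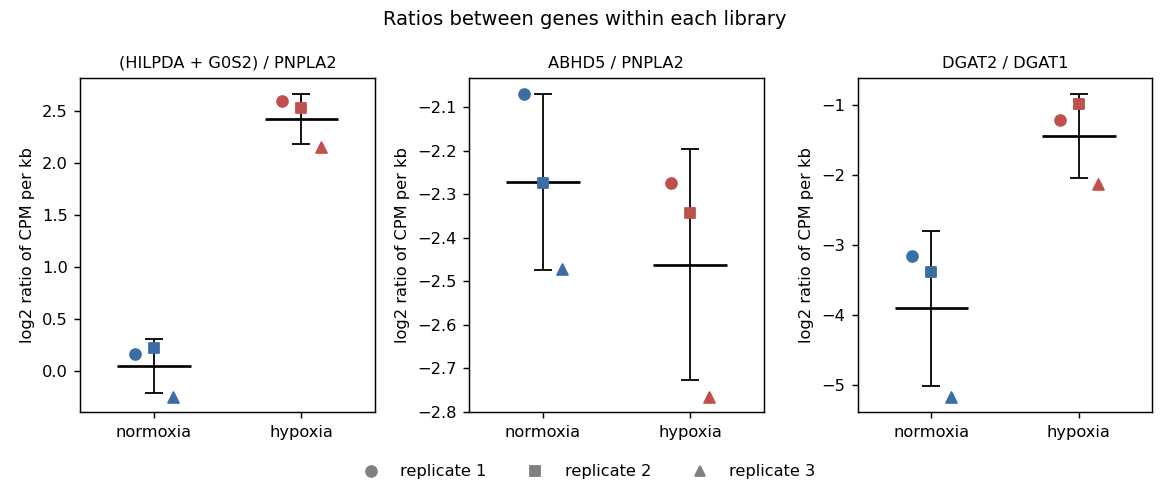
The 3 within-library ratios of CPM per kilobase on a log2 axis, with 1 point per sample, a line at each group mean and bars of 1 SD, in panels with their own vertical scales. The inhibitor to lipase and DGAT2 to DGAT1 ratios do not overlap between conditions, and the ABHD5 to PNPLA2 ratio does.

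Among the coat proteins, PLIN2 moved in the opposite direction to PLIN3, PLIN4 and PLIN5. PLIN2 (adipophilin), the ubiquitous coat protein of cytosolic droplets, had levels of 41.1, 38.5 and 46.3 CPM in normoxia and 60.5, 64.0 and 82.7 CPM in hypoxia. The groups were separate, and replicate 3 was highest in both. The mean rose 1.65-fold, from 42.0 ± 3.97 to 69.1 ± 11.9 CPM (SD, n = 3), with a log2 fold change of 0.72 (SE 0.13, 95% interval 0.41 to 1.03, edgeR adjusted p = 0.00259). PLIN2 lies on the reverse strand of chromosome 9 at 19115759 to 19127604, with 7 exons.

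PLIN3, a broadly expressed perilipin that shuttles between cytosol and nascent droplets, was the most abundant perilipin in normoxia. Its levels were 94.8, 93.2 and 107.7 CPM in normoxia and 36.8, 37.2 and 55.0 CPM in hypoxia. All hypoxia samples were lower, with replicate 3 the highest sample in each group. The mean fell 2.29-fold (95% interval 1.76 to 2.97), from 98.6 ± 7.99 to 43.0 ± 10.4 CPM (SD, n = 3), with a log2 fold change of -1.19 (SE 0.16, edgeR adjusted p = 6.30e-04).

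PLIN4, a perilipin with long amphipathic repeats found mainly in adipose tissue and muscle, had the largest fall of the 10 genes. It went from 5.17, 8.30 and 6.11 CPM in normoxia to 1.11, 1.53 and 1.09 CPM in hypoxia. The mean fell 5.29-fold (95% interval 3.57 to 7.82), from 6.53 ± 1.61 to 1.25 ± 0.247 CPM (SD, n = 3), with a log2 fold change of -2.40 (SE 0.24, edgeR adjusted p = 2.00e-04), which ranked 31 from the bottom of the 15657 tested genes. PLIN4 shares 41 exon bases, 0.645% of its exon length, with HDGFL2 on the opposite strand. PLIN5, which tethers droplets to mitochondria in oxidative tissues, went from 13.6, 17.8 and 14.8 CPM to 3.66, 5.11 and 6.06 CPM. Its mean fell 3.10-fold, from 15.4 ± 2.17 to 4.94 ± 1.21 CPM (SD, n = 3), with a log2 fold change of -1.63 (SE 0.20, edgeR adjusted p = 4.17e-04).

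In the composition of the perilipin family, PLIN2 replaced PLIN3 as the most abundant transcript. Taking the summed CPM per kilobase of PLIN1 to PLIN5 in each library as the whole, PLIN2 made up 29.4, 27.4 and 29.3% in normoxia and 61.7, 61.9 and 59.8% in hypoxia. The shares within a condition differed by little next to the gap between conditions, which was 32.4 percentage points (28.7 ± 1.14% to 61.1 ± 1.17%, SD, n = 3, exact permutation p = 0.1, adjusted 0.133). The PLIN3 share was 60.5 ± 0.885% in normoxia and 33.9 ± 1.68% in hypoxia. PLIN5 made up 9.11 ± 1.56% and 3.74 ± 0.520%, and PLIN4 made up 1.48 ± 0.408% and 0.375 ± 0.114%. The summed perilipin level was 66.7, 66.9 and 75.2 CPM per kilobase in normoxia and 46.7, 49.3 and 65.9 in hypoxia, where the highest hypoxia sample lay just below the lowest normoxia sample (exact permutation p = 0.1), a gap smaller than the log2 shift of 0.157 between TMM and upper-quartile scaling.

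**Figure D4:**
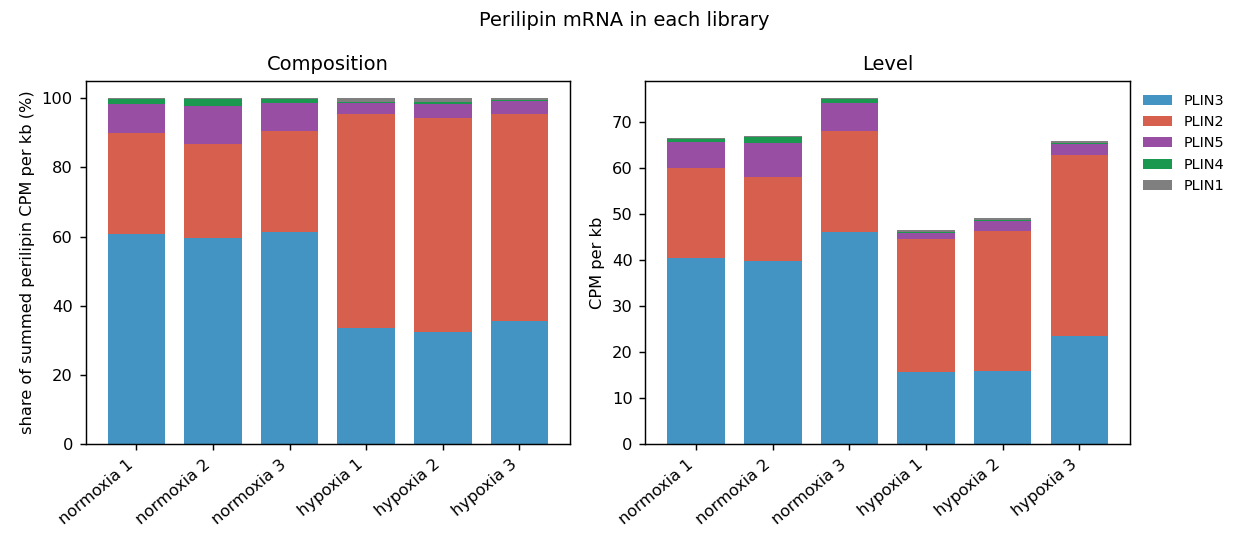
Share of each perilipin in the summed PLIN1 to PLIN5 level (left, %) and the level itself (right, CPM per kilobase of exon) as stacked bars for each of the 6 libraries. PLIN3 takes the largest share in the 3 normoxia libraries and PLIN2 in the 3 hypoxia libraries.

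PLIN4, PLIN5 and PLIN3 lie close together on chromosome 19, all on the reverse strand, at 4502192 to 4517716, 4522544 to 4535208 and 4838346 to 4867780. The other genes of that stretch were therefore listed. Of 11 others, 8 were tested, 4 fell (HDGFL2, TNFAIP8L1, DPP9 and FEM1A), 0 rose and 4 missed the threshold. The shares over all tested genes were 29.1% lower and 30.4% higher. The log2 fold changes of the 4 lower neighbours ran from -0.61 to -0.41, each closer to 0 than those of the 3 perilipins.

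Promoter sequences were available from the RefSeq table (GRCh38.p14) for 7 of the 10 genes, namely the 4 perilipins, PNPLA2, G0S2 and ABHD5, and not for HILPDA, DGAT1 and DGAT2. The core letters of the hypoxia response element, ACGTG and GCGTG, were searched on both strands from 250 bases before to 50 after each RefSeq start, a window that holds at least 1 of them in 48.4% of 35116 promoters (ACGTG in 21.4%, GCGTG in 36.5%). Of the 7 genes, 5 held at least 1 match and PLIN2 alone held ACGTG. The 250 bases before the start are given for 2 genes that rose, PLIN2 (chr9:19127493-19127742, reverse strand) and G0S2 (chr1:209675162-209675411, forward strand), and 2 that fell, PLIN3 (chr19:4867668-4867917, reverse strand) and PLIN4 (chr19:4518487-4518736, reverse strand), 5′ to 3′ on the gene's strand, with matches on either strand in capitals.
PLIN2: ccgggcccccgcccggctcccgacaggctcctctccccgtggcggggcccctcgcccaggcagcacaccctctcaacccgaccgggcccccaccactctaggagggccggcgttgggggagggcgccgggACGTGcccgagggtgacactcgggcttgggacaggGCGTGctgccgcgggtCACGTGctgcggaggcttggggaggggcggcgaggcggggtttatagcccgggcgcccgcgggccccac
G0S2: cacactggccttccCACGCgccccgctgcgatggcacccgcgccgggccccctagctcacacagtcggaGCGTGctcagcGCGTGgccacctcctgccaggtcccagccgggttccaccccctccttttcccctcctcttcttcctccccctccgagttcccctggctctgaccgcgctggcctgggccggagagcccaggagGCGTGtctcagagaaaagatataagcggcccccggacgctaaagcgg
PLIN3: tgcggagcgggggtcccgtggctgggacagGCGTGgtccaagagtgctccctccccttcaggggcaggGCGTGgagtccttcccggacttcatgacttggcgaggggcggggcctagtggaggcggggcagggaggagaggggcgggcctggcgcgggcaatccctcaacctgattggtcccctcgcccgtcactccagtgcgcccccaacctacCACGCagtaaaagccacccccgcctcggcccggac
PLIN4: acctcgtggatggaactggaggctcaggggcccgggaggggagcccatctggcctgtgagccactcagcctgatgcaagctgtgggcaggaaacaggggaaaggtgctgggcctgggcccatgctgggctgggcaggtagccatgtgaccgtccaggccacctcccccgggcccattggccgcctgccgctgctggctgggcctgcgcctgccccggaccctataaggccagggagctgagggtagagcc
PLIN2 has ACGTG at -120, a pair of overlapping matches on opposite strands at -69 and -68 that together read CACGTG, and GCGTG at -85. A further GCGTG on its reverse strand at -3 crosses the start and is not in capitals. G0S2 has 4 matches of GCGTG and PLIN3 has 3, so genes that rose and a gene that fell both carry these letters. PLIN4 has 0, as does PNPLA2. PLIN5 has 2 matches of GCGTG, and ABHD5 has 1 in 2 of its 3 listed promoters. A match is a string of letters and no measure of binding, and the starts in that table were not compared with the hg19 gene models of the counts.

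DGAT1, the acyltransferase of the endoplasmic reticulum, and DGAT2, which also acts at the droplet surface, moved in opposite directions. DGAT1 had 38.2, 36.8 and 51.5 CPM in normoxia and 20.8, 20.0 and 31.8 CPM in hypoxia. Its groups were separate, and replicate 3 was the highest sample in each. The mean fell 1.74-fold, from 42.2 ± 8.13 to 24.2 ± 6.58 CPM (SD, n = 3), with a log2 fold change of -0.80 (SE 0.21, 95% interval -1.27 to -0.32, edgeR adjusted p = 0.0112). DGAT1 lies on chromosome 8 at 145538246 to 145550582, reverse strand, with 17 exons, and shares 144 exon bases (3.87% of its exon length) with HSF1 on the opposite strand.

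DGAT2 was scarcer, with 112, 86 and 29 counts in normoxia and 241, 244 and 439 in hypoxia. These were 2.84, 2.31 and 0.937 CPM against 5.95, 6.67 and 4.80 CPM. All hypoxia samples were higher, and replicate 3 was the lowest sample in each group. The mean rose 2.82-fold (95% interval 1.61 to 4.96), from 2.03 ± 0.981 to 5.81 ± 0.942 CPM (SD, n = 3), with a log2 fold change of 1.50 (SE 0.35, edgeR adjusted p = 0.00740). The gene lies on chromosome 11 at 75479778 to 75512581, forward strand, with 8 exons.

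The DGAT2 to DGAT1 ratio, per kilobase of exon, was 0.113, 0.0953 and 0.0276 in normoxia and 0.434, 0.507 and 0.229 in hypoxia. DGAT1 thus remained the more abundant of the pair in every library. The log2 difference was 2.47, or 5.55-fold (exact permutation p = 0.1, adjusted 0.133), and it was 1.83 without normoxia replicate 3, whose ratio was the lowest.

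Levels per kilobase of exon allowed the 10 genes to be ordered. In normoxia the order was HILPDA (49.5 CPM per kilobase), PNPLA2 (48.6), PLIN3 (42.1), PLIN2 (20.0), DGAT1 (11.3), ABHD5 (9.97), PLIN5 (6.32), PLIN4 (1.03), DGAT2 (0.827) and G0S2 (0.182). The samples of HILPDA and PNPLA2 overlapped, as did those of PNPLA2 and PLIN3, of DGAT1 and ABHD5, and of PLIN4 and DGAT2. In hypoxia HILPDA stood alone at 225.3 CPM per kilobase, followed by PNPLA2 (42.5), PLIN2 (32.9), PLIN3 (18.4), ABHD5 (7.64), DGAT1 (6.50), DGAT2 (2.37), PLIN5 (2.03), G0S2 (1.27) and PLIN4 (0.196). There the overlapping neighbours were PNPLA2 and PLIN2, ABHD5 and DGAT1, DGAT2 and PLIN5, and PLIN5 and G0S2. HILPDA made up 26.2 ± 2.51% of the summed level of the 10 genes in normoxia and 66.6 ± 3.61% in hypoxia (SD, n = 3), and it lay above 89.8% of all tested genes in normoxia and 98.9% in hypoxia.

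The 5 lists of other genes of lipid storage and use were then counted, with the 10 genes left out, against a median log2 fold change of 0.028 over all tested genes. The shares of all tested genes to set beside each list were 30.4% higher and 29.1% lower. Among other droplet coat and surface proteins, 13 of 19 were tested, of which 3 rose (23.1%), 4 fell (30.8%) and 6 missed the threshold, with a median of 0.005. The falls were led by METTL7A, a methyltransferase-like protein of droplets, from 118 ± 21.1 to 30.7 ± 5.38 CPM (SD, n = 3, log2 fold change -1.94, edgeR adjusted p = 1.08e-04). RAB18, a small GTPase of the droplet surface, fell by 1.18 on the log2 scale and AUP1, a droplet protein involved in ubiquitination, by 0.57. SPART (spartin) rose by 0.55 and TMEM159, a seipin partner in droplet assembly, by 0.30. PLIN1, the adipocyte perilipin, was scarce and went from 0.507 ± 0.163 to 1.38 ± 0.240 CPM (log2 fold change 1.41, adjusted p = 0.00519).

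In the lipolysis list, 10 of 15 were tested, of which 3 rose (30%), 2 fell (20%) and 5 missed the threshold, with a median of 0.13. With the replicate block 5 rose, while calls higher over all tested genes went from 4765 to 5733. LIPE, the hormone-sensitive lipase that acts after PNPLA2, fell from 1.72 ± 0.279 to 0.716 ± 0.178 CPM (SD, n = 3, log2 fold change -1.24, edgeR adjusted p = 0.00494). MGLL, the monoacylglycerol lipase of the last step, rose from 4.14 ± 1.84 to 8.35 ± 0.882 CPM (log2 fold change 1.00, adjusted p = 0.0252). LIPA, the lysosomal acid lipase, rose by 0.26 on the log2 scale, and PRKACA, a catalytic subunit of protein kinase A, fell by 0.43. PNPLA3, a close relative of PNPLA2, had means of 15.3 and 15.8 CPM in normoxia and hypoxia (log2 fold change 0.052, adjusted p = 0.767).

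Of the glycerolipid and sterol ester synthesis list, 14 of 21 were tested, with 5 higher (35.7%), 5 lower (35.7%) and 4 that did not pass (median -0.02). Of the acylglycerolphosphate acyltransferase genes, AGPAT4 (1.47) and AGPAT2 (0.89) rose and AGPAT3 (-0.52) fell on the log2 scale, while AGPAT1 (0.10) and AGPAT5 (0.068) did not pass. LPIN3, a phosphatidate phosphatase, rose by 0.91. GPAM, the mitochondrial glycerol-3-phosphate acyltransferase, fell by 0.57, and SOAT1, which makes cholesteryl esters, fell by 0.48.

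In the fatty acid uptake and activation list, 15 of 22 were tested, with 4 higher (26.7%), 5 lower (33.3%) and 6 that did not pass (median -0.002). VLDLR, a receptor for triacylglycerol-rich lipoproteins, rose from 3.25 ± 1.34 to 27.9 ± 0.361 CPM (SD, n = 3, log2 fold change 3.09, edgeR adjusted p = 1.12e-04). The fatty acid transport proteins split, with SLC27A2 (1.10), SLC27A3 (0.54) and, outside the naming rule and added after its value was seen, SLC27A1 (0.50) higher and SLC27A4 (-1.50) and SLC27A5 (-0.93) lower on the log2 scale. DBI, the acyl-CoA binding protein, fell by 1.20.

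The fatty acid oxidation list leaned to one side. Of 24 genes, 23 were tested, 13 fell, 2 rose and 8 missed the threshold, that is 56.5% lower against the background of 29.1% and 8.70% higher against 30.4%, with a median log2 fold change of -0.36. With upper-quartile factors 4 of these genes were called higher and 11 lower. In that setting 5972 of all 15657 tested genes were called higher and 3285 lower. ECHS1, an enoyl-CoA hydratase, fell by 0.95, CPT2, the inner-membrane carnitine palmitoyltransferase, by 0.94, and ETFA, an electron transfer flavoprotein subunit, by 0.90. The 2 higher genes were CPT1C (0.90), the brain-type carnitine palmitoyltransferase, and ACADS (0.60), the short-chain acyl-CoA dehydrogenase.

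**Figure D5:**
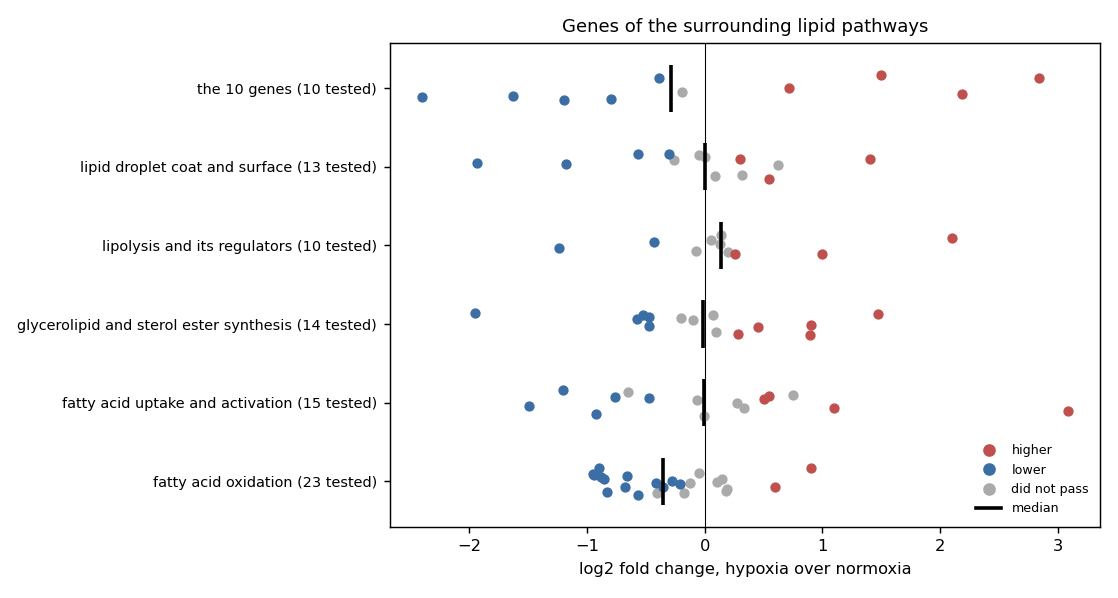
Log2 fold change of hypoxia over normoxia for every tested gene of the 10 and of the 5 pathway lists (points spread vertically for clarity), with 1 point per gene coloured by call and a line at each list's median. The oxidation list has 13 of 23 genes lower, and the medians of the other 4 lists lie between -0.02 and 0.13.

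Genes of other cell types that express several of the 10 genes were measured beside them. Of 9 adipocyte markers 4 were tested, and ADIPOQ and PLIN1 were higher and CFD lower in hypoxia. Among all tested genes 30.4% were called higher and 29.1% lower. The summed adipocyte marker level was 9.27 to 12.8 CPM per kilobase in normoxia and 4.94 to 6.79 in hypoxia, most of it from CFD and THRSP. THRSP did not pass the test (log2 fold change -1.34, edgeR adjusted p = 0.166). With the replicate block its fall was past the threshold (-1.24, edgeR adjusted p = 2.53e-04). FABP4 reached at most 1 count and LEP at most 2 counts in any library. The fibroblast list had a summed level of 14.3 to 16.2 CPM per kilobase in normoxia and 13.3 to 17.1 in hypoxia, with 3 of 8 tested, 2 higher (PDGFRB and THY1), and PDGFRA at 0 in every library. COL1A1, which did not pass the test, made up most of that sum, so the sum says little of PDGFRB and THY1, which had at most 28 and 81 counts in a library. Both passed the low-count filter through their hypoxia libraries, so their being tested was tied to their rise. The part of these markers in the changes of the 10 genes was not tested.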

How the data were processed

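The deposited values were raw gene counts per library, which the authors obtained from stranded poly(A) libraries (Illumina HiSeq) with FastQC 0.11.5, Skewer trimming, STAR 2.5.2a alignment to hg19 and featureCounts 1.5.1 on RefSeq genes. The strand and multi-mapping settings are not given in the sources used here. Counts of the 6 libraries were filtered with filterByExpr (minimum count 10, minimum total 15), which left 15657 genes, scaled by TMM and tested with edgeR 4.0.16 (glmQLFit, glmQLFTest, R 4.3.3) without a block. The test script was tested on simulated counts. Standard errors and 95% intervals came from the quasi-likelihood F statistic. Levels per kilobase used the exon lengths in the files.

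The deviations of same-numbered samples from their group means correlated at 0.338, 0.422 and 0.575, so the numbers were taken to pair the samples, and a fit with the number as a block was run as well. The labels do not say whether replicates were separate cultures. The study's methods call the hypoxia and normoxia sequencing samples paired and name edgeR's exact test, which takes no block. They do not say which samples formed a pair. The study describes its data as coming from independent experiments, without saying so separately for the sequencing. The p-values set the difference between the groups against the spread between these samples. Without the block, that spread includes the differences between replicate numbers.

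The 10 genes and the pathway and marker lists were chosen with earlier results of these data known. Named list genes were up to 3 with the largest rise and 3 with the largest fall past the threshold with a mean of at least 100 counts, plus PLIN1, LIPE, MGLL and PNPLA3. SLC27A1, AGPAT1 and AGPAT5 were named outside this rule. Ratios were compared by exact two-sided permutation tests (SciPy 1.17.1). Alternatives were DESeq2 1.42.0, edgeR's exact test, other size factors, no filter, the block and leaving out libraries. DESeq2 adjusted p-values given as NA stayed NA. In the synthesis list, 1 of 21 names (AGPAT9) matched 2 current genes and was left out. The immune marker list is not reported here.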

Additional observations from a re-analysis of the deposited data

How the results depend on the processing

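For 9 of the 10 genes (all but PNPLA2) the direction and the side of the threshold held under every alternative run: the edgeR exact test, DESeq2, RLE and upper-quartile factors, no filter beyond 1 count, the replicate block, and each library or replicate 3 left out. The PNPLA2 fall was past the threshold when blocked on replicate number (log2 fold change -0.19, adjusted p = 0.00887) and without replicate 3 of both conditions (-0.19, adjusted p = 0.0254). Leaving out libraries moved it between -0.35 and -0.038. The block combined with upper-quartile factors was chosen after seeing the data. The block changed no other call among the 10 genes.

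The number of lipolysis list genes called higher went from 3 to 5 with the replicate block and to 5 without replicate 3. Calls higher over all genes also rose, from 4765 of 15657 to 5733 of 15657 with the block and 5751 of 15803 without replicate 3. The number of oxidation list genes called higher went from 2 to 4 with upper-quartile factors. Over all genes, 51.1% of calls were higher with TMM and 64.5% with upper-quartile factors (5972 higher and 3285 lower). The exact permutation tests of the ratios cannot go below 0.1 with 3 samples a group. Depth limits G0S2 most, with 4 to 9 counts in normoxia.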
